A study of Rattus norvegicus with 8 samples.

Results

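A set of 7 genes of glycolysis and glucose uptake was taken by Ensembl identifier from the table of 9848 rat genes: the glucose transporter Slc2a1 (ENSRNOG00000007284) and the enzymes Hk2 (ENSRNOG00000006116), Tpi1 (ENSRNOG00000015290), Gapdh (ENSRNOG00000018630), Eno1 (ENSRNOG00000017895), Pkm (ENSRNOG00000011329) and Ldha (ENSRNOG00000013009). Of these, 6 had a row in the count table. Tpi1 had no row among the values read here and was not analysed. All 6 exceeded 10 raw counts somewhere among the 8 libraries and so were among the 7875 genes tested.

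Glycolysis turns glucose into pyruvate in the cytosol, and lactate dehydrogenase can then reduce the pyruvate to lactate, which regenerates the NAD+ that the pathway needs. Glucose enters many cells through Slc2a1 (Glut1), is held inside as glucose-6-phosphate by hexokinases such as Hk2, and is processed further by Tpi1, Gapdh, Eno1 and Pkm. In macrophages and microglia exposed to bacterial lipopolysaccharide (LPS), an increase of glycolysis is a well-known part of the activated state, and several of these genes are targets of the hypoxia-inducible factor HIF-1. Gapdh has a further use as a reference gene in RT-qPCR, and it served the study in that way for S100B and GFAP in the enteric glial cells.

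The cells were EGC/PK060399egfr, a rat enteric glial cell line, so every group came from the same line. The 4 groups had 2 libraries each. THC-COOH + LPS cells were given 10 nM of THC-COOH for 1 h before 1 µg/mL LPS, THC + LPS cells were given 0.1 µg/mL of THC for 1 h before the same LPS, LPS cells were given LPS alone, and Control cells were untreated. The labels give 24 h of LPS, while the text of the study's results gives 4 h. The cannabinoids were dissolved in ethanol, and no source read here says whether LPS and Control cells were given ethanol. The labels do not say if separate cultures lie behind the 2 libraries of each group. Each p therefore rests only on spread between libraries, which may be technical. The edgeR p and intervals draw the spread of each gene towards that of all genes (19.7 prior against 4 residual degrees of freedom).

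Total counts ran from 545779 in LPS library 2 to 1559935 in THC + LPS library 1. The libraries read the 3' ends of polyadenylated RNA, so levels are given as counts per 1000000 (CPM, scaled with TMM factors between 0.986 and 1.02), and they are compared between libraries and not between genes. Intervals of single values cover counting error only. The reference used here gave a symbol for 0 of the 9848 Ensembl identifiers, so markers of enteric glia and of other cell types, and further glycolysis genes, were not looked up.

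The stretches before the start sites of these genes were searched for ACGTG on either strand (CACGT when read on the printed strand). It is a form of the core of the hypoxia response element that HIF-1 binds. The form that starts with G (GCGTG) was not searched. RefSeq windows of the assembly GRCr8 were found by symbol for 7 of the 7 genes, and the 250 bases before the start were searched. Slc2a1, Gapdh and Ldha held the motif, against 16.6% of 33469 windows of the same length. Their sequences are shown because these 3 genes hold the motif, which is in capitals.
Slc2a1: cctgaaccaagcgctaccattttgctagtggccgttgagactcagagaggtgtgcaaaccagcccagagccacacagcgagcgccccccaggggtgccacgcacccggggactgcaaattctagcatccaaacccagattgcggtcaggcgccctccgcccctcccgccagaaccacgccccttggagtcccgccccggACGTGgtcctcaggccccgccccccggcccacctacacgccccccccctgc
Gapdh: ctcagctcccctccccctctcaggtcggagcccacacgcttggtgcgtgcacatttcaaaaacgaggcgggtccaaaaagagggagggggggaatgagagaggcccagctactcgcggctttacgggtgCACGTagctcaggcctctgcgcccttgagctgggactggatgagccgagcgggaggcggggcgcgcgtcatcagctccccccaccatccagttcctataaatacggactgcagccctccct
Ldha: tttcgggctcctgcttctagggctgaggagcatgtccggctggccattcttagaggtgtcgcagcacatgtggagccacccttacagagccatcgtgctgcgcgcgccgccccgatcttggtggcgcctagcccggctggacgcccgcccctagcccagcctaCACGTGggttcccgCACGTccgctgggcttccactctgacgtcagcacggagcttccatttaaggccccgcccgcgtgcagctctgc
The Slc2a1 stretch is chr5:138002272-138002521 on the plus strand, the Gapdh stretch is chr4:159652468-159652717 on the minus strand, and the Ldha stretch is chr1:106507842-106508091 on the plus strand. In Ldha the motif lay in 2 separate places, and the first of them reads as the motif on both strands. No match was found in the windows of Hk2, Tpi1, Eno1 (both of its starts) or Pkm, which says only that these letters are not in those stretches.

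None of the 6 measured genes passed an adjusted p under 0.05 with a fold change above 1.6 in any comparison by edgeR's quasi-likelihood test. Eno1 was almost level over the 8 libraries, and the group means of Gapdh, Pkm and Ldha were each pulled by 1 library. DESeq2 and limma voom likewise called 0 of the 6 in each comparison. Together the 6 genes held 0.887% and 0.968% of the counts of the THC-COOH + LPS libraries, 0.844% and 0.823% in THC + LPS, 0.98% and 0.890% in LPS, and 0.945% and 0.799% in Control. The Control libraries overlapped with those of each other group. In a test of any difference among the 4 groups, 3 of the 6 genes, Gapdh, Slc2a1 and Ldha, had an unadjusted p under 0.05, against 8.04% of all genes tested. By edgeR the p of Gapdh was 0.0026 (adjusted p = 0.225), that of Slc2a1 0.00373 (adjusted p = 0.259) and that of Ldha 0.00559 (adjusted p = 0.303). Thus 0 of the 6 had an adjusted p under 0.05, against 0.470% of all genes tested.

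**Figure D1:**
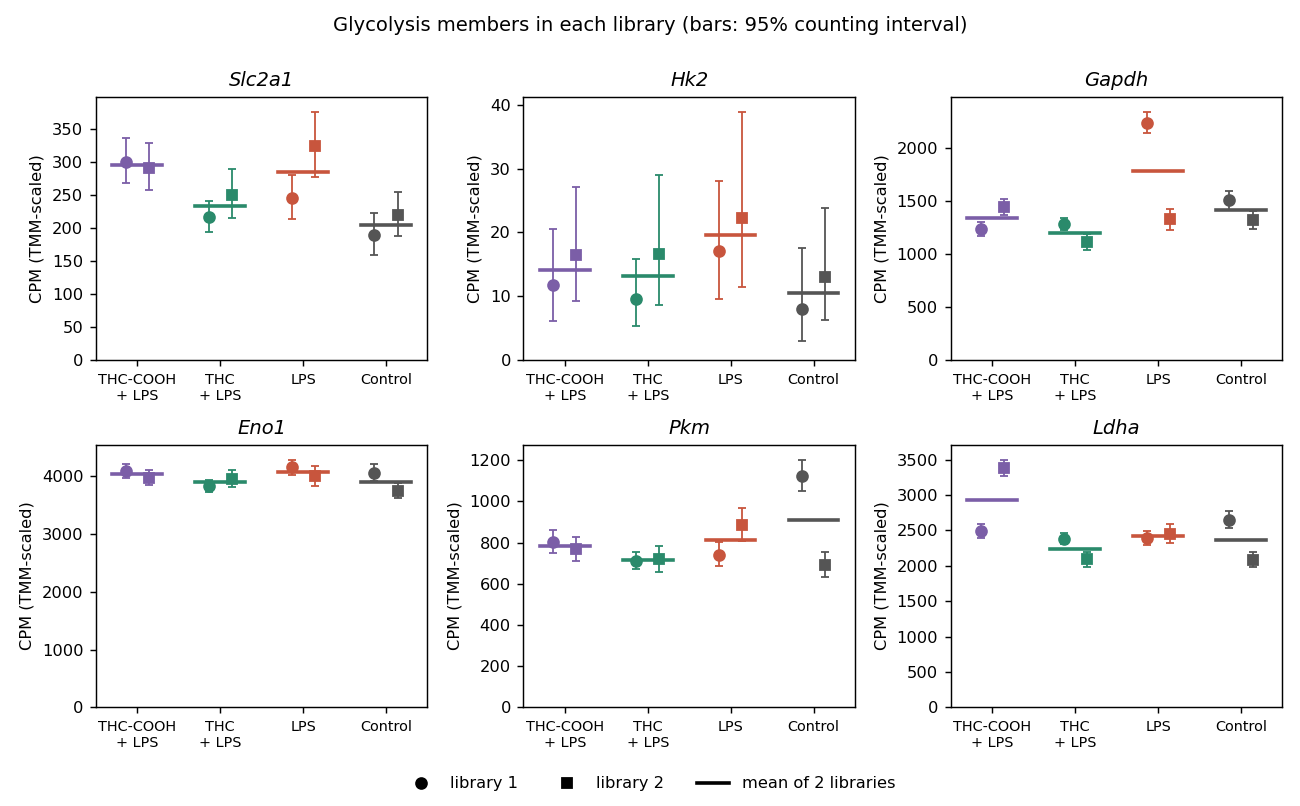
CPM of the 6 measured glycolysis genes in each library, by group; circles are library 1, squares library 2, thick lines the mean of 2 libraries and thin bars the 95% counting interval. Gapdh in LPS library 1 (2235 CPM), Pkm in Control library 1 (1124 CPM) and Ldha in THC-COOH + LPS library 2 (3380 CPM) lie apart from the other libraries of the same gene.

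Slc2a1, the main glucose carrier of the plasma membrane in many cultured cells, was higher in both LPS libraries than in both Control libraries, by a difference that did not pass the adjusted test. It had 301 and 292 CPM in the THC-COOH + LPS libraries, 217 and 251 CPM in the THC + LPS libraries, 245 and 325 CPM in the LPS libraries, and 189 and 219.5 CPM in the Control libraries. Both LPS libraries and both THC-COOH + LPS libraries lay above both Control libraries, while THC + LPS library 1 lay just under Control library 2. The means were 296 ± 6.45 CPM with THC-COOH + LPS, 234 ± 23.6 CPM with THC + LPS, 285 ± 56.0 CPM with LPS and 204 ± 21.5 CPM in Control (SD, n = 2 libraries each). In order of level, THC-COOH + LPS and LPS overlapped, as did LPS with THC + LPS, and THC + LPS with Control.

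The log2 fold change of Slc2a1 with LPS relative to Control was 0.46 (standard error 0.15, 95% interval 0.15 to 0.77). Its unadjusted p was 0.00504 and its adjusted p 0.439 (edgeR). The value was 0.66 without LPS library 1 and 0.26 without LPS library 2. Over the 6 libraries exposed to LPS, with or without a cannabinoid, Slc2a1 had a lowest level of 217, a median of 271 and a highest of 325 CPM, against 189 and 219.5 CPM in the 2 Control libraries. The ranges overlapped only at THC + LPS library 1 and Control library 2. This pooled difference was 0.39 on the log2 scale (95% interval 0.14 to 0.64, unadjusted p = 0.00383, adjusted p = 0.494, edgeR). An exact two-sided permutation test over the 28 splits of these libraries gave p = 0.107, where the smallest p it allows is 0.0357.

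Relative to LPS alone, Slc2a1 was at −0.28 on the log2 scale with THC (95% interval −0.57 to 0.01) and at 0.07 with THC-COOH (95% interval −0.22 to 0.37). Neither interval reached a 1.6-fold change. Set directly against THC-COOH + LPS, THC + LPS was lower by a log2 fold change of −0.35 (95% interval −0.64 to −0.07, unadjusted p = 0.0169, adjusted p = 0.427, edgeR), with both THC + LPS libraries under both THC-COOH + LPS libraries. The doses of the compounds were not matched, so this difference belongs to 0.1 µg/mL of THC and 10 nM of THC-COOH.

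Hk2, the inducible hexokinase that commits glucose to the cell, was close to the lowest counts that could be tested. Its raw counts were 12 and 15 in THC-COOH + LPS, 15 and 12 in THC + LPS, 15 and 12 in LPS, and 6 and 10 in Control. As CPM these were 11.8 and 16.4 in THC-COOH + LPS, 9.61 and 16.6 in THC + LPS, 17.0 and 22.3 in LPS, and 8.05 and 13.0 in Control. The LPS libraries lay above the libraries of each other group, and the remaining groups overlapped. The log2 fold change with LPS relative to Control was 0.86, with a 95% interval from −0.20 to 1.91 (adjusted p = 0.770, edgeR). With THC relative to LPS it was −0.65 (95% interval −1.6 to 0.30), and with THC-COOH relative to LPS it was −0.45 (95% interval −1.40 to 0.50). The variation of Hk2 over the 8 libraries (CV 32.3%) was close to what counting alone gives (29.9%), so a change in Hk2 within these intervals was not detectable at this depth.

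Gapdh, which oxidizes glyceraldehyde-3-phosphate, was higher in 1 library than in all others. It had 1234 and 1441 CPM in THC-COOH + LPS, 1280 and 1110 CPM in THC + LPS, 2235 and 1325 CPM in LPS, and 1504 and 1316 CPM in Control. LPS library 1 stood above the remaining 7 libraries, and LPS library 2 lay within the Control libraries' range. The counting interval of LPS library 1 (2138 to 2336 CPM) did not meet that of LPS library 2 (1229 to 1426 CPM). These intervals take each count as a separate molecule, and how molecular identifiers were treated was not given. The source of the gap was not tested. The group means were 1337 ± 147 CPM with THC-COOH + LPS, 1195 ± 120 CPM with THC + LPS, 1780 ± 644 CPM with LPS and 1410 ± 133 CPM in Control (SD, n = 2 libraries each).

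The Gapdh comparisons with the LPS group depended on which LPS library entered them. The log2 fold change of Gapdh with LPS relative to Control was 0.35 (unadjusted p = 0.021, adjusted p = 0.611, edgeR). It was −0.09 without LPS library 1 and 0.66 without LPS library 2, where the adjusted p was 0.0257 (edgeR) and the fold stayed under 1.6. With THC relative to LPS it was −0.58 (95% interval −0.87 to −0.29, unadjusted p = 0.000361, adjusted p = 0.176, edgeR), which placed Gapdh at rank 16 by p among the 7875 genes. The adjusted p passed under the replicate block (0.0134) and with every gene with a count in the edgeR fit (0.0186), at a fold under 1.6 in both, and over all alternatives it ran from 0.000551 to 1.00. The log2 fold change was −0.14 without LPS library 1 and −0.90 without LPS library 2, where it passed both thresholds. With THC-COOH relative to LPS it was −0.42 (adjusted p = 0.523, edgeR), 0.02 without LPS library 1, and −0.74 without LPS library 2, where it also passed. THC + LPS and THC-COOH + LPS, which do not involve that library, differed by −0.16 on the log2 scale (95% interval −0.45 to 0.13). Over all LPS-exposed libraries relative to Control the difference was 0.01 (95% interval −0.22 to 0.25).

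Eno1, the enolase that forms phosphoenolpyruvate, varied least. It had 4096 and 3982 CPM in THC-COOH + LPS, 3834 and 3962 CPM in THC + LPS, 4156 and 4002 CPM in LPS, and 4067 and 3755 CPM in Control. The highest library was 1.11 times the lowest, and the 2 Control libraries spanned most of that range. Its CV over the 8 libraries was 3.35%, against a median of 5.13% in 42 other genes with a mean count within 1.5 times of its own. Counting alone gives 1.75%. Its log2 fold changes were 0.06 for LPS relative to Control (95% interval −0.06 to 0.18), −0.07 for THC + LPS relative to LPS (95% interval −0.18 to 0.05) and −0.01 for THC-COOH + LPS relative to LPS (95% interval −0.13 to 0.10). These intervals bound Eno1 to changes well under 1.6-fold.

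Pkm, the pyruvate kinase of most tissues outside liver and red cells, was high in a Control library. It had 803 and 768 CPM in THC-COOH + LPS, 712 and 719.8 CPM in THC + LPS, 742 and 887 CPM in LPS, and 1124 and 692 CPM in Control. Control library 1 was the highest of the 8 and Control library 2 the lowest, so the LPS-exposed libraries all lay between them. The log2 fold change over all LPS-exposed groups relative to Control was −0.24 (95% interval −0.47 to −0.01, unadjusted p = 0.043, adjusted p = 0.739, edgeR), and it was 0.15 without Control library 1 and −0.55 without Control library 2, where the adjusted p was 0.0106 (edgeR) and the fold stayed under 1.6. For LPS alone relative to Control the log2 fold change was −0.16 (95% interval −0.45 to 0.12). The libraries of THC + LPS differed by 1.01-fold, and each of them lay under both LPS libraries, at a log2 fold change of −0.18 relative to LPS (95% interval −0.47 to 0.11).

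Ldha, the muscle-type subunit of lactate dehydrogenase, was highest in 1 library of THC-COOH + LPS. It had 2491 and 3380 CPM in THC-COOH + LPS, 2380 and 2093 CPM in THC + LPS, 2392 and 2449 CPM in LPS, and 2654 and 2085 CPM in Control. THC-COOH + LPS library 2 stood above the other 7 libraries, while THC-COOH + LPS library 1 lay under Control library 1. The log2 fold change with THC-COOH relative to LPS was 0.28 (95% interval 0.06 to 0.49, unadjusted p = 0.0143, adjusted p = 0.610, edgeR), and it was 0.04 without THC-COOH + LPS library 2 and 0.48 without THC-COOH + LPS library 1 (adjusted p = 0.148). THC + LPS relative to THC-COOH + LPS gave −0.39 (95% interval −0.60 to −0.17, unadjusted p = 0.00107, adjusted p = 0.138, edgeR). It was −0.16 without THC-COOH + LPS library 2 and −0.59 without THC-COOH + LPS library 1, where the adjusted p was 0.0101 (edgeR). The adjusted p also passed under the replicate block (0.0447) and with every gene with a count in the edgeR fit (0.0279), and over all alternatives it ran from 0.0101 to 1.00. The fold was under 1.6 in each of these fits that passed. With LPS alone relative to Control the value was 0.03 (95% interval −0.19 to 0.25).

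**Figure D2:**
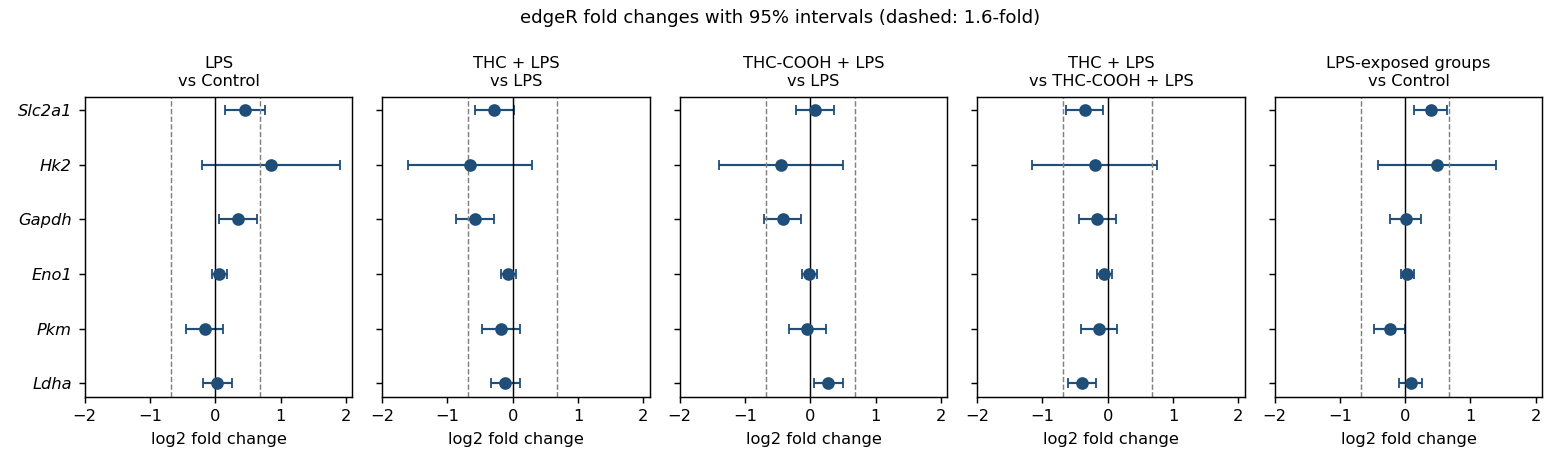
edgeR log2 fold changes (x axis) of the 6 genes in 5 comparisons, with 95% intervals as bars and dashed lines at a 1.6-fold change. The Eno1 intervals are the narrowest (−0.06 to 0.18 for LPS vs Control), and those of Hk2 are the widest (−0.20 to 1.91).

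With LPS relative to Control, 5 of the 6 genes were at a positive log2 fold change (49.3% of all genes tested were) and 2 had an unadjusted p under 0.05, Slc2a1 and Gapdh, against 7.16% of all genes tested. None was called, against 0.0381% of all genes. The libraries of LPS and Control did not overlap for Slc2a1 and Hk2, both higher with LPS, and 17.9% of all genes were higher without overlap. The median log2 fold change of the 6 was 0.20, and that of all genes −0.01. For 4 of the 6, all but Slc2a1 and Hk2, the 95% interval lay within a 1.6-fold change. These intervals draw the spread of a gene towards that of all genes. The 2 libraries of a single group differed by 1.69-fold for Gapdh (LPS) and by 1.62-fold for Pkm (Control). For these 2 genes the interval therefore does not exclude a change of that size.

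With THC relative to LPS, all 6 measured genes were at a negative log2 fold change, from −0.65 for Hk2 to −0.07 for Eno1, with a median of −0.23, where 49.9% of all genes were positive and their median was 0.00. In 5 of them, all but Slc2a1, both THC + LPS libraries lay under both LPS libraries, while 18.7% of all genes were lower without overlap. Only Gapdh had an unadjusted p under 0.05, against 6.16% of all genes, and 0 of 6 were called, against 0.0254%. The 95% interval lay within a 1.6-fold change for Slc2a1, Eno1, Pkm and Ldha. The limit given above for the Pkm interval holds here too, since all libraries enter 1 fit. The Slc2a1 value was −0.48 without LPS library 1 and −0.08 without LPS library 2. The values for THC relative to LPS and those for LPS relative to Control share the 2 LPS libraries, so a high LPS library gives opposite signs in both.

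With THC-COOH relative to LPS, 2 genes were at a positive (49.9% of all genes were) and 4 at a negative value, with a median of −0.03. An unadjusted p under 0.05 was reached by Gapdh, lower, and Ldha, higher, against 6.70% of all genes, and 0 of 6 were called by edgeR, where 0.00% of all genes were called too. The groups did not overlap for Hk2, lower, and Ldha, higher, where 18.0% and 18.3% of all genes were lower and higher without overlap. With THC + LPS set against THC-COOH + LPS, 6 of 6 genes were at a negative value, with a median of −0.18, where 50% of all genes were positive. In 4 of them, Slc2a1, Eno1, Pkm and Ldha, the libraries did not overlap, against 19.6% of all genes lower and 19.9% higher without overlap. Slc2a1 and Ldha had an unadjusted p under 0.05, against 8.81% of all genes, and 0 were called, against 0.229%. The share of the counts that the 6 genes held was lower in both THC + LPS libraries than in each library of LPS or THC-COOH + LPS. Control library 2 held a lower share than either THC + LPS library, at 0.799%. The comparisons of THC + LPS with LPS and with THC-COOH + LPS use the same 2 THC + LPS libraries. Low values in those libraries give negative signs in both. Over all LPS-exposed groups relative to Control, 2 of 6 had an unadjusted p under 0.05, Slc2a1 and Pkm, against 6.65% of all genes, and 0 were called, against 0.0635%. Here 5 of 6 were at a positive value (49% of all genes were), and in 0 of 6 did the libraries not overlap, against 4.69% of all genes higher and 4.04% lower without overlap.

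For Gapdh the 2 libraries of each group differed more than the median gene of like count. For the other genes this held in some groups only, and for Eno1 only in Control. Absolute log2 differences between the 2 libraries, with 0.5 added to each count, were set beside the median of genes with a mean count within 1.5 times. For Gapdh the difference was 0.22 in THC-COOH + LPS, 0.20 in THC + LPS, 0.75 in LPS and 0.19 in Control, where the 95 genes of like count had medians of 0.07, 0.07, 0.08 and 0.07. None of those 95 genes differed more between the LPS libraries. For Pkm it was 0.70 between the Control libraries, against a median of 0.11 in 166 genes, none of which differed more, and 0.02 between the THC + LPS libraries. For Ldha it was 0.44 between the THC-COOH + LPS libraries, against a median of 0.07 in 59 genes, none of which differed more, and 0.03 between the LPS libraries. For each of these genes, the group in which no like gene differed more is its group with the largest difference.

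A different library was thus the highest for each of Gapdh, Pkm and Ldha. In LPS library 1 Pkm had 742 CPM and Ldha 2392 CPM, both under LPS library 2. In Control library 1, where Pkm was high, Ldha (2654 CPM) and Gapdh (1504 CPM) were also above Control library 2. The CV over the 8 libraries was 24.2% for Gapdh, 17.7% for Pkm and 16.4% for Ldha, against medians of 6.42%, 7.18% and 5.87% in genes of like count. Slc2a1 had 18.4%, against a median of 9.48% in 680 genes. The RefSeq gene table of GRCr8 lists 81 pseudogenes named for Gapdh, 31 for Eno1, 30 for Ldha and 19 for Pkm, and 0 for Slc2a1 and Hk2. Reads that such copies share with their parent gene can be lost or split in counting, and the part of this in the spread was not tested.

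**Figure D3:**
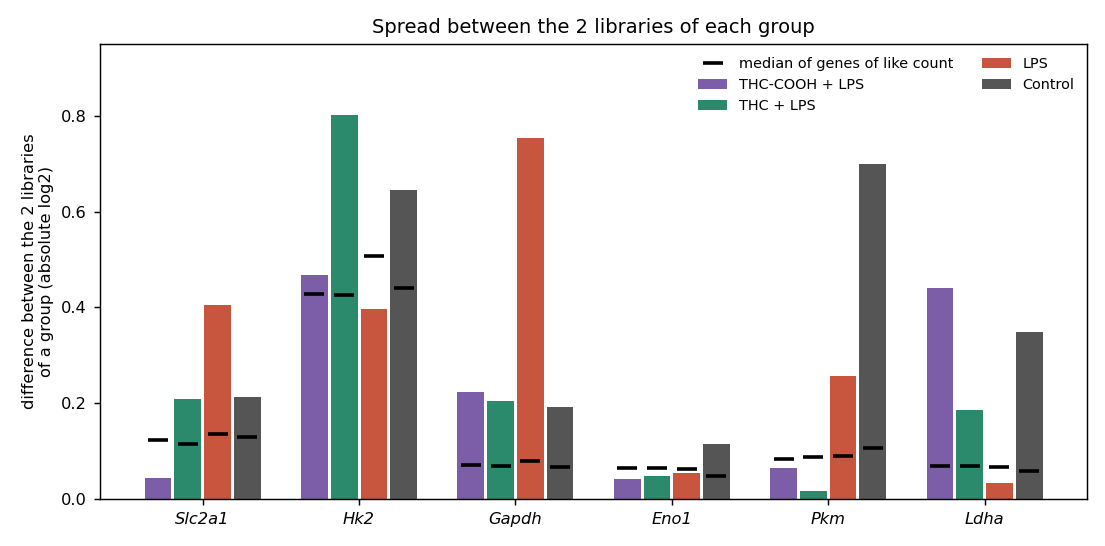
Absolute log2 difference between the 2 libraries of each group (bars) for the 6 genes, with black marks at the median of genes with a like mean count. Gapdh in LPS (0.75), Pkm in Control (0.70) and Ldha in THC-COOH + LPS (0.44) exceed their marks most among the well counted genes, and Eno1 has at most 0.11.

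Because Gapdh served as the RT-qPCR reference for enteric glial cells in the study, the other genes were also expressed per Gapdh count of the same library, a ratio that needs no scaling of libraries. Eno1 per Gapdh was 3.32 and 2.76 in THC-COOH + LPS, 3.00 and 3.57 in THC + LPS, 1.86 and 3.02 in LPS, and 2.7 and 2.85 in Control. The LPS pair was the widest, although Eno1 itself differed by 1.04-fold between those libraries as CPM. LPS library 1 gave the lowest ratio of the 8 libraries for Eno1, Pkm, Ldha and Slc2a1. For Slc2a1 per Gapdh it gave 0.110, where LPS library 2 gave 0.245, the highest of all.

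The choice of scale moved the group differences of the other genes. With LPS relative to Control, the difference of mean log2 values of Slc2a1 was 0.47 as CPM and 0.18 per Gapdh. With THC relative to LPS it was −0.28 as CPM and 0.25 per Gapdh, so the sign turned. With THC-COOH relative to LPS it was 0.07 as CPM and 0.44 per Gapdh. For Ldha with THC-COOH relative to LPS it was 0.26 as CPM and 0.63 per Gapdh, and for Eno1 with THC relative to LPS −0.07 as CPM and 0.46 per Gapdh. These ratios are given as descriptions, with no test, and they share the Gapdh counts of LPS library 1. The log2 of Slc2a1 per Gapdh was −3.19 in LPS library 1 and −2.03 in LPS library 2. The means with THC + LPS (−2.35) and THC-COOH + LPS (−2.17) lay between them. The direction of Slc2a1 per Gapdh relative to LPS therefore depended on which LPS library was taken. In the Ldha and Eno1 comparisons given, the mean with the cannabinoid lay above both LPS libraries.

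**Figure D4:**
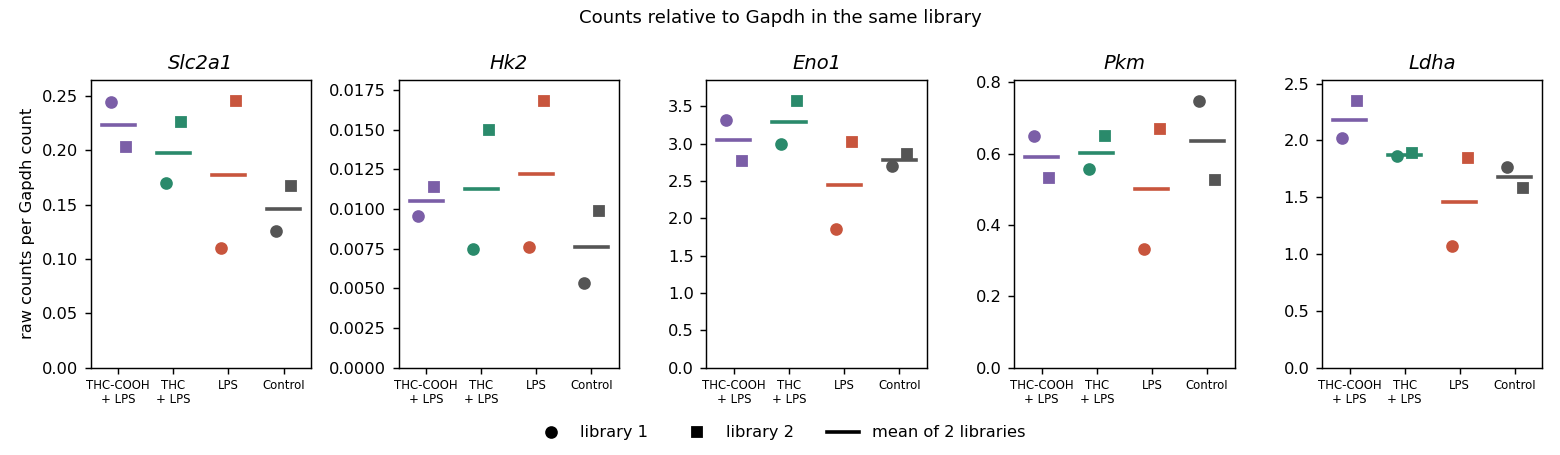
Raw counts per Gapdh count in the same library (y axis) for the other 5 genes, by group; circles are library 1, squares library 2 and lines the mean of 2 libraries. LPS library 1 lies lowest for Slc2a1, Eno1, Pkm and Ldha (1.86 for Eno1, where LPS library 2 has 3.02).

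Profiles over the 8 libraries were compared by the root mean square difference of log2 CPM after each gene was centred on its own mean. Eno1 and Ldha were the closest pair of the 6 genes, at 0.19, and Hk2 and Pkm the farthest, at 0.56. This distance grows with the variation of each gene (CV 3.35% for Eno1, 16.4% for Ldha, 32.3% for Hk2 and 17.7% for Pkm). A small distance therefore does not show that 2 genes vary together. Among the 3125 other genes that averaged 50 counts or more, ENSRNOG00000005480 and ENSRNOG00000008941 were nearest to the mean profile of the 6, both at 0.05, where that mean profile itself deviated from level by 0.14. Each of the 6 genes had equal weight in that profile, Hk2 included, whose variation was close to what counting alone gives.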

How the data were processed

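Poly(A) RNA was sequenced by a bulk adaptation of MARS-seq in 8 libraries. The submitters' processing notes name STAR 2.7.3a, HTSeq, cutadapt, bcl2fastq 2.20.0.422 and the build Rnor_6.0. How molecular identifiers were treated, and the annotation release, were not given in the sources read. The authors deposited raw read counts for each Ensembl gene. The deposited normalized values are a signal, counts over the DESeq2 size factor of the library (0.638 to 1.84), checked against the raw counts.

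Raw counts of genes above 10 in at least 1 library were tested with edgeR 4.0.16 (R 4.3.3; TMM, quasi-likelihood, all libraries in 1 fit, no covariate). Standard errors are Wald values of that fit. Called genes needed an adjusted p under 0.05 (Benjamini-Hochberg over 7875 genes) and a fold change above 1.6, as in the study's methods. Scripts were tested on simulated data. Alternatives used DESeq2 1.42.0, limma 3.58.1 (voom, or log2 of the deposited values plus 1), other scalings and filters, the replicate number as a block, and left-out libraries. The genes, and the lists, were chosen with earlier results of these data known. All measured members were named, plus the nearest 2 profiles. Symbols of the members came with the list. Figures used matplotlib 3.10.9.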

Additional observations from a re-analysis of the deposited data

Results flagged for a closer look

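In each gene, the 6 LPS-exposed libraries were searched for a highest or lowest value far from the others by Dixon's ratio, against its 95% critical value. Gapdh in LPS library 1, at 2235 CPM, was past it (ratio 0.706), where the other 5 libraries had at most 1441 CPM. Ldha in THC-COOH + LPS library 2, at 3380 CPM, was also past it (ratio 0.691), where the other 5 had at most 2491 CPM. These 6 libraries come from 3 groups, and chance marks about 1 in 20 such sets.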

How the results depend on the processing

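With 2 libraries per group, values of Hk2 are limited by low counts, and those of Gapdh, Pkm and Ldha by 1 library each. Of 504 recomputed values of 30 changes (each measured gene in 5 comparisons), 483 kept their direction and their side of the thresholds, 19 changed sign and 2 passed where they had not; none of the sign changes had passed. Under DESeq2 size factors or library totals in edgeR no sign changed. With every gene with a count in the fit, Eno1 for THC-COOH + LPS vs LPS was at 0.0017, and on log2 of the deposited values Gapdh for all LPS-exposed groups vs Control was at −0.0072. The other sign changes came from left-out libraries, with these ranges. For LPS vs Control they were −0.48 to 0.23 for Pkm, −0.14 to 0.22 for Ldha and −0.092 to 0.66 for Gapdh. For THC-COOH + LPS vs LPS they were −0.13 to 0.28 for Slc2a1, −0.74 to 0.019 for Gapdh, −0.036 to 0.019 for Eno1 and −0.17 to 0.087 for Pkm. For THC + LPS vs THC-COOH + LPS it was −0.54 to 0.24 for Hk2. For all LPS-exposed groups vs Control they were −0.55 to 0.15 for Pkm, −0.077 to 0.27 for Ldha, −0.13 to 0.12 for Gapdh and −0.022 to 0.093 for Eno1. The 2 passes were Gapdh without LPS library 2, where LPS library 1 is assumed to vary like the other groups.

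Among the measured glycolysis genes, the number called by the main fit was 0 in every comparison. An unadjusted p without a minimum fold gave 3 for any difference, 1 for THC relative to LPS and 2 in each other comparison. This setting drops both the adjustment and the minimum fold, and each of these pairwise changes had a fold under 1.6. For any difference, 1 gene, Gapdh, was called with every gene with a count and under the replicate block. Leaving out each library gave 0 to 1 for THC + LPS vs LPS, for THC-COOH + LPS vs LPS and for any difference, where it was Pkm without Control library 2, Gapdh without LPS library 2 and Ldha without THC-COOH + LPS library 1. The cause was not tested. Whether the library numbers mark pairs is not stated. Residual correlations of same-numbered libraries ran from −0.099 to 0.054. With 2 libraries per group the residuals of a gene mirror each other, so these few values cannot settle pairing. Under the replicate block 18 of all genes were called for THC + LPS vs LPS, against 2 without it.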
